A study of Mus musculus with 10 samples.

Results

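The genes described here are imprinted genes with roles in growth, which a working list names as Peg3, Meg3, H19, Dlk1, Mest, Cdkn1c, Ndn, Plagl1, Grb10 and Gnas. A probe set, the group of short probes on the array that together measure a transcript, counted when the annotation of the array platform assigned it to exactly 1 gene and that gene was on the list. By this rule 9 of the 10 listed genes had 18 probe sets among the 12422 of the array, which name 8251 genes. The array's probe set for H19 is assigned to H19 together with Mir675, so H19 has no value here. The list was chosen from earlier results of the same contrast, the difference between mdx and control muscle, so the members' own differences are given as a description, with no test and as support for nothing.

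The samples were 5 arrays of gastrocnemius, a calf muscle, from male mdx mice and 5 from normal male mice used as controls, all aged 16 weeks. The mdx strain has a mutation in the dystrophin gene, and its limb muscles pass through rounds of fibre death and repair. The labels give no other treatment, no strain background for the normal mice, and leave unsaid whether each array had its own animal, so the spread within a group may be partly technical. Intensities are linear and background-subtracted, and a noise level of 156.8 was estimated from the values below 0.

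An imprinted gene is transcribed mainly from the copy inherited from a given parent, the other copy being silenced by marks such as DNA methylation laid down in the germ line. Several of these genes are abundant in the fetus, decline after birth, and are known as a network that sets growth in mouse. Peg3, Dlk1, Mest, Ndn and Plagl1 are expressed from the paternal copy, and Meg3, H19, Cdkn1c and, in most tissues, Grb10 from the maternal one. The arrays do not tell parental copies apart. The muscle is a mixture of fibres, precursors, connective tissue and infiltrating cells, and in such bulk samples more cells of a type and more RNA per cell cannot be told apart.

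The promoter windows of 4 genes whose intensity was higher in mdx are shown with that of Dlk1, the neighbour of Meg3 on chromosome 12, whose intensity was not. Each window runs from 250 bases before to 50 bases after an annotated start, from RefSeq on GRCm38.p6, with CpG dinucleotides, the sites of DNA methylation, in capitals. For Meg3 and Mest, which have 2 and 3 windows, the first with the most CpG is printed. The windows are Peg3 at chr7:6730370-6730669 on the minus strand, Meg3 at chr12:109540746-109541045, Mest at chr6:30737800-30738099 and Ndn at chr7:62348027-62348326, all 3 on the plus strand, and Dlk1 at chr12:109452573-109452872, also on the plus strand.
Peg3: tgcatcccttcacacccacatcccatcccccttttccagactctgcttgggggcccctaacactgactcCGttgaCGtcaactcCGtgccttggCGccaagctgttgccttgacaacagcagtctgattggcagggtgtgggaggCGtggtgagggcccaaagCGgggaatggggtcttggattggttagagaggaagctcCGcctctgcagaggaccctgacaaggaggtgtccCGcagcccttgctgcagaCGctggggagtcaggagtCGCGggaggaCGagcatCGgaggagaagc
Meg3: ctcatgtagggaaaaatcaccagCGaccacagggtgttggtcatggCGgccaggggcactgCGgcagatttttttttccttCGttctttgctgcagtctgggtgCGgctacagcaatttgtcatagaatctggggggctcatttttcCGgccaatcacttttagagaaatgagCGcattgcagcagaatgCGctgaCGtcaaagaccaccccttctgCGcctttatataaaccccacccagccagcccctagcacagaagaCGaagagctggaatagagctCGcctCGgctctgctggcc
Mest: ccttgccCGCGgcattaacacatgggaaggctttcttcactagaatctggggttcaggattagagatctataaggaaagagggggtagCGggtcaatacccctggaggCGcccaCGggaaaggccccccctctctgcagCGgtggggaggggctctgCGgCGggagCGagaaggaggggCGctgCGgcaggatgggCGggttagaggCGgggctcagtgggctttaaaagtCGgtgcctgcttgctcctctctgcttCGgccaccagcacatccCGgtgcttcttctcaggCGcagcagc
Ndn: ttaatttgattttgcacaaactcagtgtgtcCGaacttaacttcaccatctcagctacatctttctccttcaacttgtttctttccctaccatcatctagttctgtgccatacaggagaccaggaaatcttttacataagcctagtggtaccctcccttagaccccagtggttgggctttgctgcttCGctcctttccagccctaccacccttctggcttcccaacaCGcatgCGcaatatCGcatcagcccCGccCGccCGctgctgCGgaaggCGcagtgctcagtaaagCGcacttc
Dlk1: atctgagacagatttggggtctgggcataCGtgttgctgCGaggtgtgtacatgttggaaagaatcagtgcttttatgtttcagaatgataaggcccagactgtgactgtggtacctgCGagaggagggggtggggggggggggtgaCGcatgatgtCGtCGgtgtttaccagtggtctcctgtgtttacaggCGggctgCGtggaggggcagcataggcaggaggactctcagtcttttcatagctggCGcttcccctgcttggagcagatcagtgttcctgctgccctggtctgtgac

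These windows hold 13 CpG for Peg3, 13 for Meg3, 17 for Mest, 11 for Ndn and 9 for Dlk1, against a median of 7 over 32841 windows of 300 bases in the same table. Each is above that median, and the count in Dlk1 exceeds that of 54.2% of all windows. The windows with the most CpG among the members not printed are higher still, with 45 for Grb10, 40 for Gnas and 26 for Plagl1, above 98.1%, 96.1% and 83.1% of windows. In all, 8 members had 15 windows, and none was given for Cdkn1c or H19. Both strands were searched for 3 motifs. GGGGCCCC, a site that the Plagl1 protein is known to bind, lay in 1 of the 15 member windows, that of Peg3, and in 1.08% of all windows. The E-box CAGCTG, of the kind bound by muscle regulatory factors, lay in 1, a Mest window not printed, and in 16.3% of all windows. The YY1-type motif GCCATNTT lay in 0 of the 15 and in 6.05% of all windows. These are matches of letters, not binding sites.

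Values lay in these ranges across the arrays. The mean intensity after trimming 2% from each end was between 800.7 and 800.9 on 9 arrays and 723.1 on mdx replicate 1, and 19.7% to 22.6% of values on mdx arrays and 22.8% to 23.9% on control arrays were below 0. For actin, the 3' probe set over the 5' one, which gauges RNA integrity, was 1.02 ± 0.0484 in mdx and 1.13 ± 0.0385 in control (SD, n = 5 each). The same ratio for Gapdh was 0.732 ± 0.0413 in mdx and 0.735 ± 0.0595 in control (SD, n = 5 each). The part of the actin gap in any result below was not tested. Dmd, the dystrophin gene, had 170.0, 210.7, 236.6, 158.8 and 165.8 in mdx, against 863.0, 669.6, 804.7, 1003.3 and 643.2 in control. Every mdx array was below every control array. As background, the mutation is a point change that creates a premature stop codon and does not delete the gene, so this level alone is no proof of the genotype. All 10 markers of mature muscle fibres were above the noise level on at least 1 array. Of 7612 probe sets tested, limma called 1191 higher and 1329 lower at an adjusted p under 0.05, and the median log2 change was -0.05.

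Peg3, Meg3, Mest, Cdkn1c and Ndn had higher intensities in mdx muscle than in control, by log2 changes of 0.60 to 2.20, Gnas had a lower one, and Dlk1, Grb10 and Plagl1 showed no clear difference. Read from the fit over all probe sets, with each gene represented by its brightest tested probe set, these made 5 of 9 genes called higher, 1 called lower and 3 not called. Over all 5767 genes represented in this way, 15.9% were called higher and 18.4% lower. Of the members' 18 probe sets, 13 passed the filter on low values, an intensity above 134.3 on at least 5 of the 10 arrays. In 7 of these 13 every mdx array lay above every control array, and in 0 every mdx array lay below, against 12.3% and 12.7% of all tested probe sets. Because the genes were chosen with this contrast known, and a gene that is bright in a single group passes the filter through that group, nothing is read from these counts. The median log2 change of the 9 genes was 0.60, beside -0.05 over all genes represented.

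**Figure D1:**
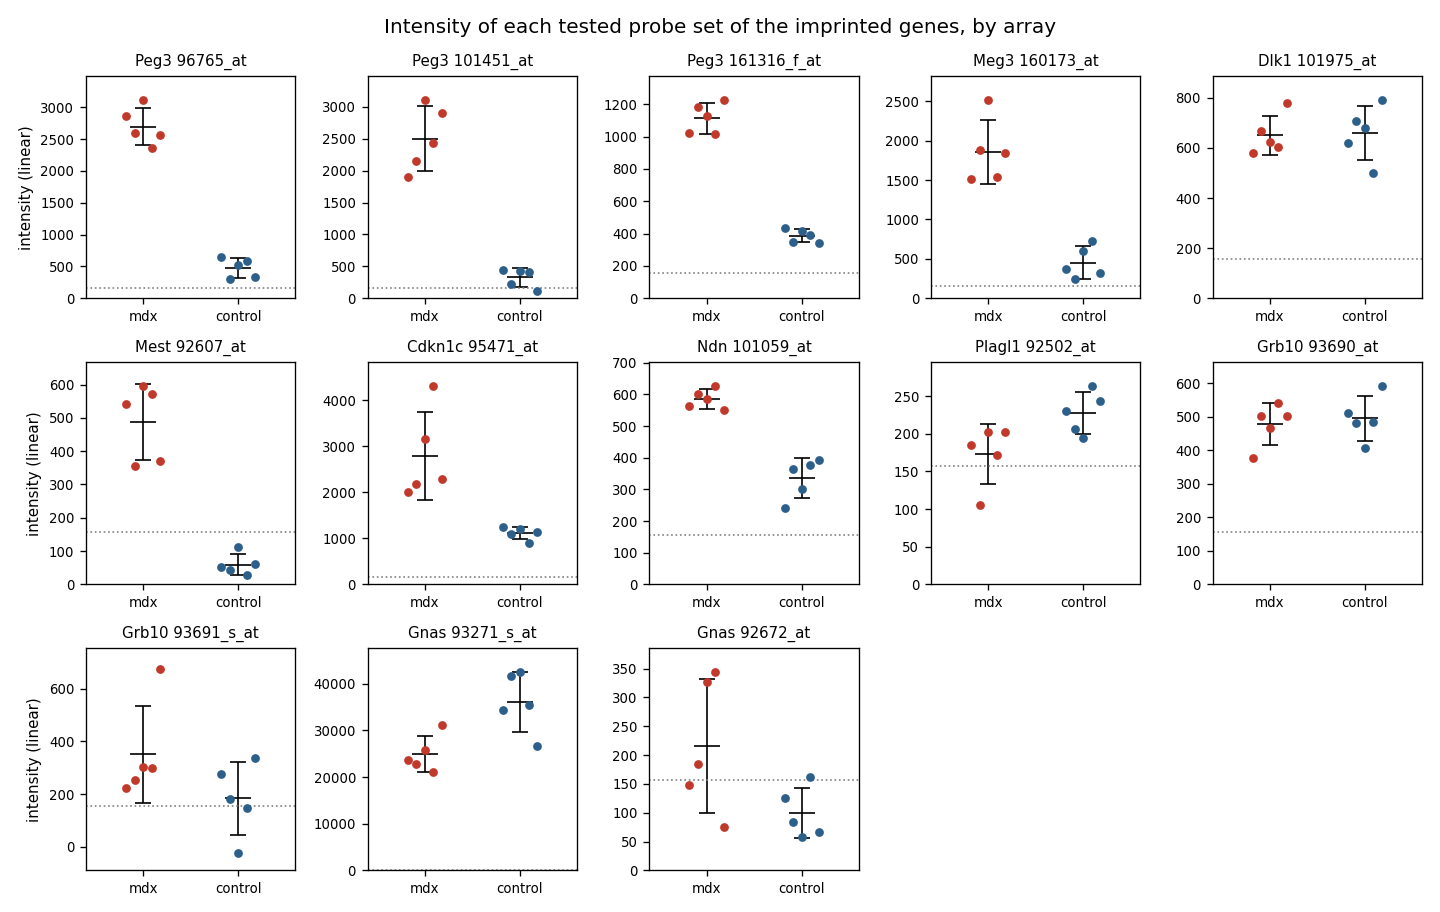
Linear intensity (vertical axes, each with its own range) of the 13 tested probe sets of the imprinted genes in the mdx arrays (red) and control arrays (blue), with the mean and SD of each group (n = 5) in black and the noise level of 156.8 as a dotted line. The groups are fully separate for the 3 probe sets of Peg3 and for Meg3, Mest, Cdkn1c and Ndn, and overlap for Dlk1, Plagl1, Grb10 and Gnas.

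Among the zinc finger genes, Peg3 had the largest difference of the list. Peg3 encodes a large zinc finger protein, also known as Pw1, that is found in satellite cells and in interstitial progenitors of mouse muscle. Its brightest probe set, 96765_at, had 2864.1, 2590.7, 3116.3, 2352.7 and 2563.2 in mdx, against 652.9, 297.0, 517.4, 586.6 and 335.3 in control. The lowest mdx array was thus well above the highest control array. The group means were 2697 ± 296 in mdx and 478 ± 156 in control (SD, n = 5 each), a ratio of 5.64, and the log2 change was 2.20 (SE 0.16), where log2 changes are mdx minus control on the scale of log2(intensity + 156.8).

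The other Peg3 probe sets had the same direction, with different sizes. Probe set 101451_at had 1897.7, 2155.0, 3109.7, 2433.8 and 2903.7 in mdx, against 438.0, 228.0, 428.6, 415.9 and 122.0 in control, where control replicate 5 lay below the noise level. Its means differed 7.66-fold, with a log2 change of 2.50 (SE 0.22). Probe set 161316_f_at, whose suffix marks probes that can match other members of a gene family, had 1019.3, 1181.5, 1125.6, 1012.9 and 1226.7 in mdx, against 434.4, 346.4, 418.5, 390.4 and 344.9 in control. Its groups were the tightest of the 3, its means differed 2.88-fold and its log2 change was 1.22 (SE 0.10), so that the 3 probe sets agree in direction but span more than 1 unit of log2.

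Plagl1, the zinc finger transcription factor also called Zac1, activates other genes of the imprinted network in mouse when it is overproduced. Its signal was near the noise level. Probe set 92502_at had 185.2, 105.6, 202.5, 172.0 and 201.7 in mdx, against 229.6, 205.8, 194.7, 263.6 and 243.3 in control. The groups overlapped, and the log2 change was -0.22 (SE 0.14), but 0.12 with the arrays scaled to the hybridization controls, bacterial and phage transcripts added to each sample. Its other probe set, 92501_s_at, was below the noise level on all 10 arrays and was not tested. At this signal a difference in Plagl1 was not measurable with confidence in either direction.

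Of the genes that restrain growth, Cdkn1c was higher in mdx and Grb10 showed no clear difference. Cdkn1c encodes p57Kip2, an inhibitor of cyclin-dependent kinases that acts as muscle precursors leave the cell cycle. It had 2001.6, 2180.8, 3152.9, 4315.3 and 2284.4 in mdx, against 1251.4, 1102.0, 1206.6, 906.3 and 1130.2 in control. Every mdx array was above every control array, with mdx replicates 3 and 4 highest and control replicate 4 lowest. The means were 2787 ± 963 in mdx and 1119 ± 133 in control (SD, n = 5 each), a ratio of 2.49, with a log2 change of 1.16 (SE 0.18). On the log2 scale its SD was 0.44 among mdx arrays and 0.16 among control arrays, beside medians of 0.22 in both groups over all tested probe sets.

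Grb10 encodes an adaptor protein that binds the insulin and IGF receptors and limits their signal. Probe set 93690_at had 375.1, 502.1, 466.6, 541.3 and 502.8 in mdx, against 509.9, 481.4, 405.5, 483.0 and 591.6 in control, with the ranges overlapping almost wholly and a log2 change of -0.04 (SE 0.12), or 0.44 with scaling to the hybridization controls. Probe set 93691_s_at had 223.4, 254.9, 303.8, 300.4 and 673.8 in mdx, against 275.4, 181.4, -21.3, 146.5 and 337.1 in control. The high mdx value is that of replicate 5 alone, 2 control arrays lay below the noise level, and the log2 change of 0.60 had an SE of 0.31. With scaling to the hybridization controls this change was 0.93, which limma then called (limma adjusted p = 0.0156). Probe set 95450_at was below the noise level on all 10 arrays.

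Dlk1 and Gnas act at the cell membrane. Dlk1 encodes a transmembrane protein with EGF-like repeats, a relative of the Notch ligands, that in mouse is made in fetal and regenerating muscle. It had 579.9, 667.8, 622.4, 602.5 and 777.3 in mdx, against 620.7, 707.5, 680.2, 500.3 and 791.5 in control. Both groups lay well above the noise level and covered nearly the same range, with means of 650 ± 78.2 in mdx and 660 ± 108 in control (SD, n = 5 each). The log2 change was -0.01 (SE 0.12), but 0.50, which limma then called, with the arrays scaled to the hybridization controls, a scaling that moved the median of all tested probe sets to 0.45.

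Gnas encodes the alpha subunit of the stimulatory G protein, which couples receptors to cyclic AMP, and its locus also gives rise to imprinted variants. Probe set 93271_s_at had 23774.9, 22907.7, 25899.0, 21078.6 and 31188.3 in mdx, against 34291.2, 41646.0, 42586.4, 35425.4 and 26737.8 in control. The ranges overlapped only through replicate 5 of each group, the highest of the mdx arrays and the lowest of the control arrays. The means differed with a ratio of 0.691, and the log2 change of -0.52 (SE 0.14) became -0.01 after quantile normalization and 0.11 with scaling to the hybridization controls, neither of them called, where the median of all probe sets stood at 0.45. Probe set 92672_at ran the other way, at 0.50 (SE 0.23), with 2 of 5 mdx arrays and 4 of 5 control arrays below the noise level. Probe set 102082_at was below the noise level on every array. The deposited annotation does not say which variants the probe sets measure.

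Mest and Ndn were both higher in mdx. Mest, also called Peg1, encodes a membrane enzyme of the alpha/beta hydrolase fold and is abundant in the mesoderm of mouse embryos. It had 542.3, 356.8, 596.3, 570.6 and 370.3 in mdx, against 50.6, 41.7, 113.1, 29.5 and 61.8 in control. All 5 control arrays lay below the noise level and all 5 mdx arrays above it. The difference is therefore a bound, at least 3.03-fold higher in mdx, taking the mean of the mdx arrays on the log2 scale against the noise level. Its fitted log2 change was 1.57 (SE 0.17), which depends on the constant added.

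Ndn encodes necdin, a protein of the MAGE family that promotes exit from the cell cycle and supports myoblast differentiation in mouse. Probe set 101059_at had 562.9, 602.5, 583.8, 626.9 and 550.7 in mdx, against 241.9, 364.3, 299.9, 376.0 and 392.6 in control. The mdx arrays lay close together, all above the highest control array. Its means were 585 ± 30.5 in mdx and 335 ± 62.8 in control (SD, n = 5 each), a ratio of 1.75, with a log2 change of 0.60 (SE 0.12). Its SD on the log2 scale was 0.059 among mdx arrays, the lowest of the 13 tested probe sets, and 0.19 among control arrays. Probe set 94811_s_at was below the noise level on all 10 arrays and was not tested.

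The noncoding Meg3 was higher in mdx. Meg3, also called Gtl2, is a long noncoding RNA from the maternal copy of the domain that holds Dlk1, with 2 annotated genes and 0 protein-coding genes between them on GRCm38.p6. Probe set 160173_at had 1518.3, 1880.1, 2517.4, 1534.6 and 1843.4 in mdx, against 373.0, 241.3, 600.9, 732.6 and 315.6 in control. The groups did not overlap, with means of 1859 ± 405 in mdx and 453 ± 206 in control (SD, n = 5 each), a ratio of 4.11 and a log2 change of 1.77 (SE 0.22). The other probe set, 160172_at, did not pass the filter. It gave 840.8, -109.7, 963.3, -456.4 and -64.7 in mdx, against -755.5, -1118.6, -894.2, -468.6 and -1015.0 in control, so that only mdx replicates 1 and 3 lay above the noise level. Values this far below 0 are no level, and no fold is given. Within the same domain, then, Meg3 was higher while Dlk1 was not, a contrast of 2 values with no test of its own.

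**Figure D2:**
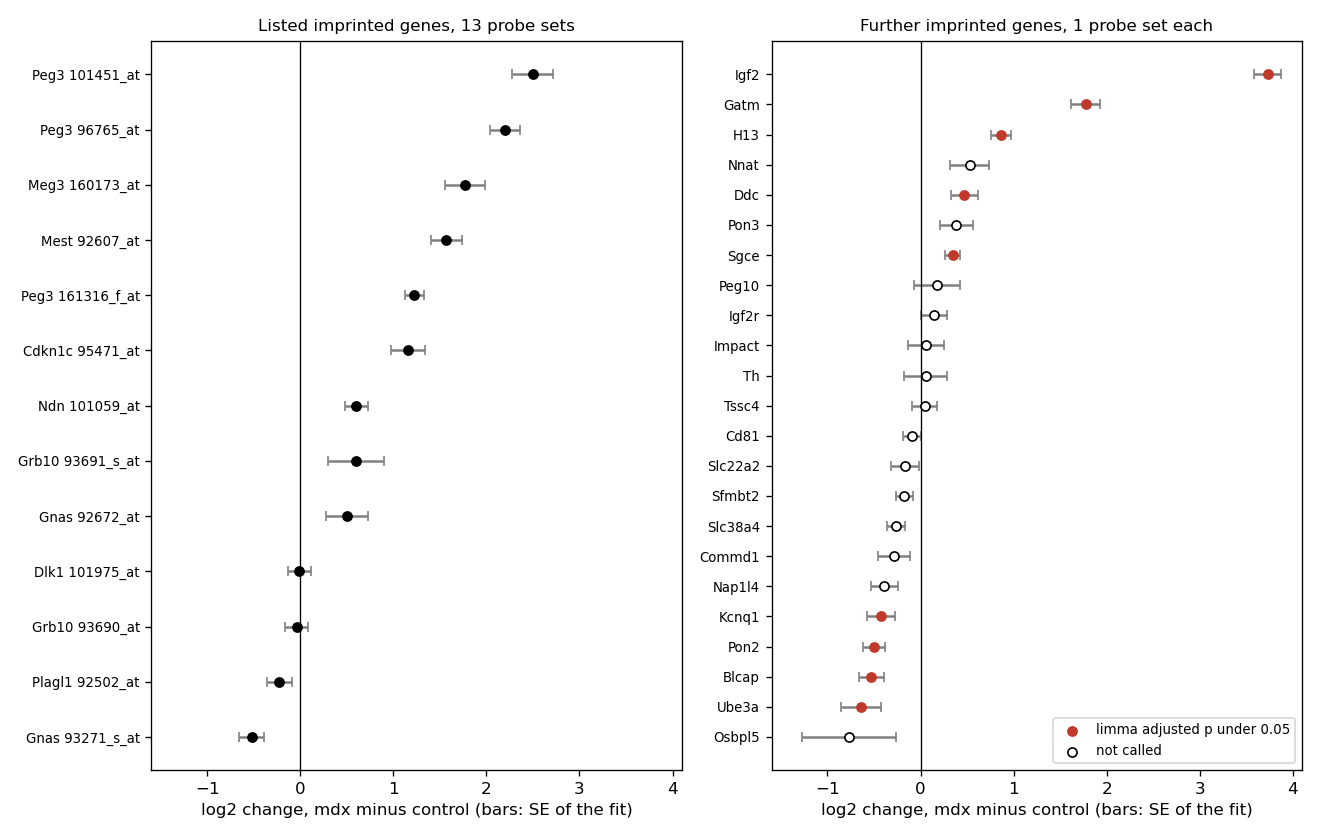
Log2 change, mdx minus control (horizontal axis, bars are the SE of the fit), for the 13 tested probe sets of the listed imprinted genes on the left and for 23 further imprinted genes, 1 probe set each, on the right. Points on the left are all black, whether called or not, and on the right red marks limma adjusted p under 0.05. Peg3, Meg3, Mest, Cdkn1c and Ndn lie to the right of 0, Dlk1 and Grb10 93690_at lie at it, and Gnas 93271_s_at lies to the left, although its sign turned, as did those of Dlk1, Plagl1 92502_at and Grb10 93690_at, with scaling to the hybridization controls.

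A list of 53 other genes known or reported to be imprinted in mouse in some tissue was read from the same fit. Of these, 34 had a probe set and 23 a tested one. Limma called 5 higher (Igf2, Gatm, H13, Ddc and Sgce) and 4 lower (Ube3a, Blcap, Pon2 and Kcnq1) in mdx, and 14 did not pass. These are 21.7% higher and 17.4% lower, beside the 15.9% and 18.4% of all genes, and the median log2 change was 0.04. This list too was chosen with earlier results of these data known, so nothing is read from these shares. Several of the 53 are imprinted in mouse placenta or brain alone, and the arrays do not show whether they are imprinted in muscle.

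Among the rises, Igf2, the fetal growth factor that neighbours H19, had the largest change, at 6699 ± 832 in mdx and 365 ± 111 in control (SD, n = 5 each), a log2 change of 3.73 (limma adjusted p = 6.29e-09, SE 0.14). That is probe set 98623_g_at, while 98622_at was below the noise level on every array and was not tested. Gatm, the enzyme that makes the precursor of creatine, had 2142.6, 1636.3, 2758.4, 2716.9 and 1832.1 in mdx, against 685.4, 421.3, 577.8, 488.3 and 473.0 in control. All mdx arrays were above all control arrays, with a log2 change of 1.78 (limma adjusted p = 3.69e-06, SE 0.16). H13, a signal peptide peptidase, rose by 0.86 (SE 0.11, limma adjusted p = 6.42e-05) with 96117_r_at, while 96116_at was below the noise level on every array. Sgce, the epsilon-sarcoglycan that lies next to Peg10, rose by 0.34 (SE 0.08, limma adjusted p = 0.00675), while Peg10 had a log2 change of 0.17 (limma adjusted p = 0.633). Ddc, the aromatic amino acid decarboxylase encoded near Grb10, rose by 0.47 (SE 0.15, limma adjusted p = 0.0277). In the tested probe sets of these 5 genes the 5 mdx arrays all lay above the 5 control arrays. The same held in 12.3% of all tested probe sets. These genes were picked by their calls on the same arrays, so the separation adds nothing to the calls. The call of Ddc ended on leaving out mdx replicate 3 or 4 or control replicate 1 or 4, with limma adjusted p between 0.0583 and 0.0639.

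The 4 falls had log2 changes of -0.64 to -0.42. Blcap, a gene that shares its locus with Nnat, had 384.1, 235.9, 396.9, 393.9 and 256.5 in mdx, against 491.6, 565.6, 565.2, 573.7 and 518.7 in control, with no overlap and a log2 change of -0.53 (limma adjusted p = 0.00953, SE 0.14). Nnat itself, which encodes neuronatin, had a log2 change of 0.53 (limma adjusted p = 0.0719). Pon2, a paraoxonase, fell by 0.50 (SE 0.11, limma adjusted p = 0.0049), also with no overlap, and Pon3 had 0.39 (limma adjusted p = 0.118). Ube3a, a ubiquitin ligase, fell by 0.64 (SE 0.21, limma adjusted p = 0.0349) with overlapping groups. Kcnq1, a potassium channel next to Cdkn1c, fell by 0.42 (SE 0.15, limma adjusted p = 0.0455), again with overlap. With scaling to the hybridization controls no fall was called in this list, and Pon2 and Kcnq1 stood at 0.029 and 0.10, beside a median of 0.45 over all probe sets. The call of Ube3a ended on leaving out mdx replicate 2, 3 or 5 or control replicate 2, 3, 4 or 5, with limma adjusted p between 0.0576 and 0.086. That of Kcnq1 ended on leaving out mdx replicate 1, 3 or 4 or control replicate 1, 2, 3 or 5, with limma adjusted p between 0.0703 and 0.0991.

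Genes that lie beside each other in an imprinted cluster thus had different values. Around Cdkn1c on chromosome 7, Kcnq1 was called lower, by a call that depended on single arrays and on the scaling. Tssc4 and Cd81 had log2 changes of 0.04 and -0.09, and Phlda2 and Slc22a18 did not pass the filter. Nap1l4, a histone chaperone of the same cluster, gave -0.39 (limma adjusted p = 0.0566) with its brightest probe set, 97860_at, which stood at 0.22 with scaling to the hybridization controls, and 1.71 (limma adjusted p = 0.000873) with a dimmer one, so its direction is not settled. Beside Ndn, Magel2 was below the noise level on all mdx arrays and on 4 of 5 control arrays. Usp29, the neighbour of Peg3, was below it on all 10 arrays.

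How the imprinted genes varied from array to array was read from deviations from the mean of each group, because the pooled values form 2 clusters. Each correlation is over 10 arrays, which share the scaling of the whole array, and is given as a description. Over the 36 pairs of the 9 genes by their brightest probe sets, Pearson's r ran from -0.64 to 0.69 with a median of 0.015, and Spearman's rho had a median of 0.024. In 19 pairs r was above 0 and in 17 below, with no sign common to the members. The pair with the highest value was Peg3 with Meg3. Peg3 96765_at and Meg3 had r = 0.69 and rho = 0.72, and r = 0.84 without the 2 arrays farthest from the median of Peg3. Peg3 101451_at with Meg3 gave r = 0.69 and rho = 0.68, and 161316_f_at with Meg3 gave r = 0.53 and rho = 0.52. The probe sets of Peg3 had r of 0.61 to 0.74 with each other, and r of Meg3 with the first 2 of them lay in that range. The pair of Peg3 and Meg3 was picked as the highest of the 36 and was not tested.

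Other pairs were lower or opposed. Mest and Cdkn1c had r = 0.57 and rho = 0.61, and r = 0.54 without the 2 arrays farthest from the median of Mest. All 5 control values of Mest lay below the noise level, which limits what this r can show. Ndn ran against Peg3, with r = -0.64, -0.57 and -0.67 for the 3 Peg3 probe sets. Without the 2 arrays farthest from the median of each Peg3 probe set, these were -0.39, -0.54 and -0.55. Dlk1 had r = -0.62, -0.40 and 0.066 with Peg3 96765_at, 101451_at and 161316_f_at, so the 3 probe sets differ. Dlk1 and Meg3 had r = -0.46, which came to 0.022 without the 2 arrays farthest from the median of Meg3 and so rests on them.

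**Figure D3:**
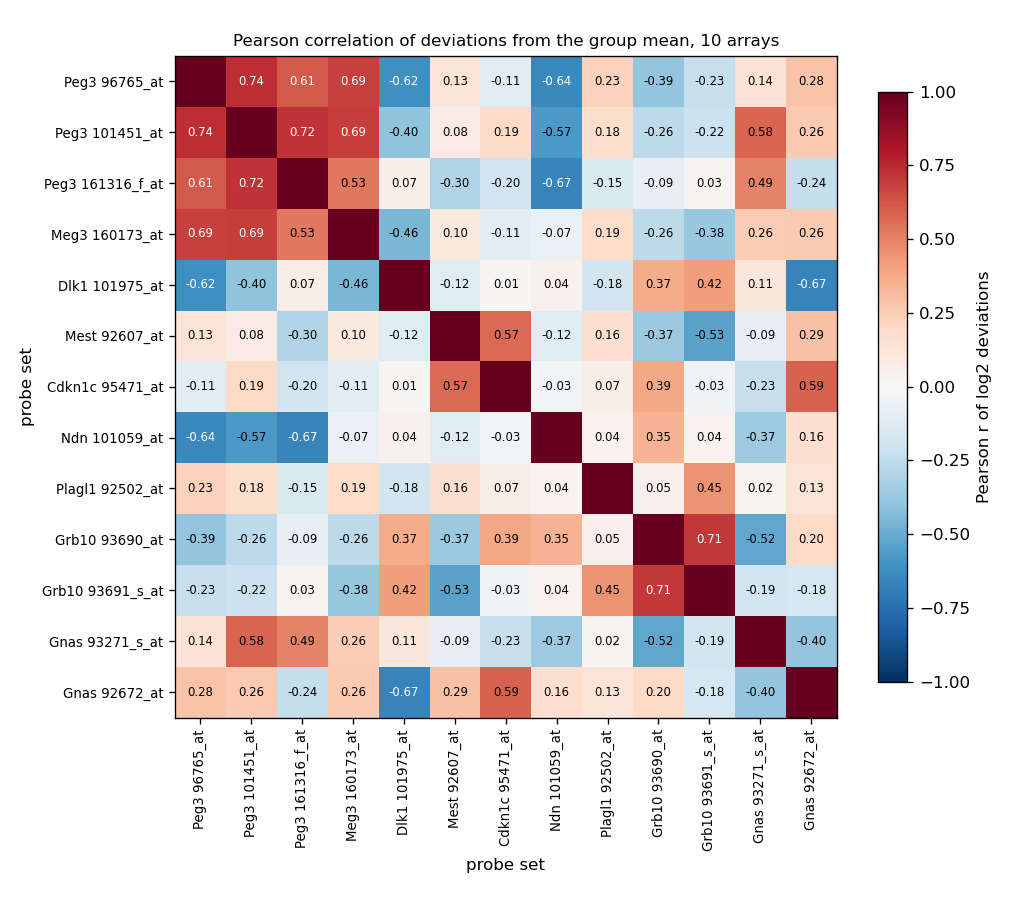
Pearson correlation over 10 arrays of log2 deviations from the group mean, for each pair of the 13 tested probe sets (rows and columns), with red for positive and blue for negative values printed in each cell. A block of positive values joins the 3 probe sets of Peg3 and Meg3 (0.53 to 0.74), while the other pairs run from -0.67 to 0.71, the highest between the Grb10 probe sets.

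For the 3 genes of the list with the largest changes, the most similar profiles were sought among 5758 other genes, as the root mean square difference over the 10 arrays in log2 relative to each gene's own control mean. Closest to Peg3 were Col5a2, a chain of type V collagen, at 0.24, Npc2, a lysosomal cholesterol carrier, at 0.28, and Cfp, the complement factor properdin, at 0.28. Closest to Meg3 were the calcium-binding S100a4 at 0.27, the scavenger receptor Stab1 at 0.28 and Npc2 at 0.30. Closest to Mest were the mast cell protease Cma1 at 0.20, the collagen chain Col1a1 at 0.21 and Marcks, a substrate of protein kinase C, at 0.22. The measure is dominated by the size of the difference between the groups, and these are genes with log2 changes from 1.34 to 2.24.

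Markers of other cells moved with the same contrast. The summed intensity of 10 markers of regenerating and immature fibres lay between 42397 and 53518 in mdx, against 14547 to 21820 in control. Limma called 8 of 10 higher and 0 lower, and Myh8 and Ncam1 were not called. Actc1 101029_f_at made up a large part of the sum. Its means were 23161 in mdx and 14146.5 in control, beside mean sums of 47189 and 17911. The summed intensity of 10 macrophage markers lay between 51783 and 71486 in mdx, against 3941 to 7500 in control, with 10 of 10 called higher. That of 9 fibroblast markers lay between 78819 and 92097 in mdx, against 42036 to 52861 in control. Of these, 7 were called higher and 2, Dcn and Pdgfra, lower. The Pdgfra call is that of 160332_at, while 95079_at was not tested and ran the other way. That probe set gave 1042.7, 1157.2, 979.0, 899.0 and -14.2 in mdx, against -1126.6 to -533.6 in control. Mature fibre markers summed to between 167075 and 254045 in mdx, against 220854 to 370884 in control, with 7 of 10 called lower. The part of each of these in the higher Peg3, Meg3, Mest, Cdkn1c and Ndn, or in the lower Gnas, was not tested.

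By summed intensity the remaining lists moved less. The 8 measured satellite cell and myoblast markers summed to between 10406 and 14238 in mdx, against 11444 to 13710 in control. Of the 7 tested, 3 were called higher, Myod1, Vcam1 and Itga7, and 1 lower, Des, the intermediate filament of all muscle fibres, while Met was below the noise level on every array. Des made up most of the sum, with means of 6609 in mdx and 9153 in control, beside mean sums of 12463 and 12410. The sum therefore says little of the dimmer markers. The 5 measured adipocyte markers lay between 7902 and 10103 in mdx, against 7217 to 9084 in control, with 1 of 3 tested called higher, Adipoq, and Pparg below the noise level on every array. The 7 endothelial markers lay between 4366 and 5646 in mdx, against 5939 to 7107 in control, with 0 called higher and 2 lower, Flt1 and Vwf.

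**Figure D4:**
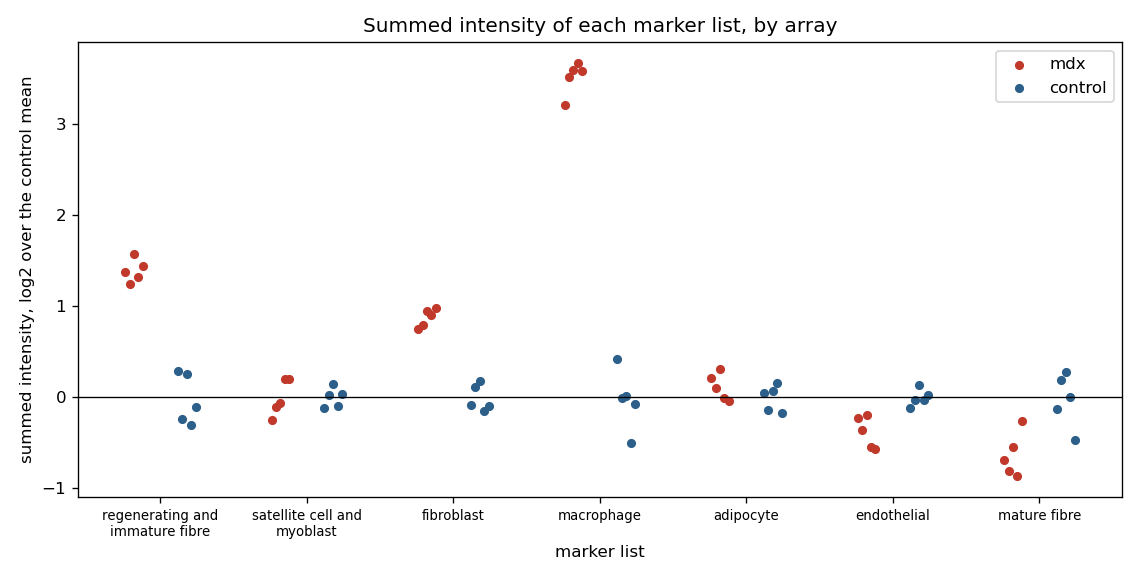
Summed intensity of each marker list on each array, as log2 over the control mean (vertical axis), with mdx arrays in red and control arrays in blue. The macrophage, regenerating fibre and fibroblast lists are higher in every mdx array than in any control array, the endothelial list is lower in every mdx array, and the satellite cell, adipocyte and mature fibre lists overlap. Des, which was lower in mdx, makes up most of the satellite cell sum.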

How the data were processed

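The values deposited by the authors are linear probe set intensities, 1 column per array, and they appear from the values to be background-subtracted and scaled per array. The software, background method and scaling are not given in the sources used here. Of 12488 probe sets, 66 controls were left out. The platform annotation gave 10833 of the rest a single gene, 396 more than 1 gene and 1193 no gene. Looking up symbols in RefSeq (GRCm38.p6) changed 0.

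Values were put on the scale log2(intensity + 156.8), with those below 0 entered as 0, 156.8 being the noise SD from the 27483 values below 0. This understates changes of dim genes. The test took the 7612 probe sets that exceeded 134.3, the percentile 40 of the whole table, on 5 or more arrays. It was limma's moderated test, two-sided, from version 3.58.1 under R 4.3.3, using lmFit and eBayes with trended variance. Adjusted p-values are Benjamini-Hochberg over those 7612, and the threshold was 0.05. The procedure was tested on simulated data. The brightest tested probe set represents a gene. Precision is limited by the number of arrays. No 2 arrays were identical (0 pairs).

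The members and gene lists were chosen with earlier results of these data known. Named were all members with every probe set, the further imprinted genes that passed, and for the 3 members with the largest change the 3 most similar genes. Their neighbours were added after values were seen. Alternatives covered the constant added, the filter, the scaling, the variance trend, the replicate number as a block, the choice of probe set and leaving out each array. Equally numbered arrays of the groups had deviations that correlated at -0.134 to 0.0524, so no shared effect of the number was visible. This does not settle whether equal numbers mark a pairing.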

Additional observations from a re-analysis of the deposited data

Results flagged for a closer look

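In 4 of 82 groups of 5 arrays examined, 1 array lay apart from the other 4 by more than Dixon's 95% critical value of 0.71, and chance flags about 1 group in 20. Grb10 93691_s_at was at 673.8 in mdx replicate 5, against 223.4 to 303.8 in the other mdx arrays. Ndn 94811_s_at, below the noise level throughout, was at 91.4 in mdx replicate 2, against -209.8 to -133.2 in the others. Nnat was at 268.0 in mdx replicate 5, against 394.4 to 439.8 in the other mdx arrays. Kcnq1 was at 682.7 in control replicate 4, against 911.1 to 1001.4 in the other control arrays.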

How the results depend on the processing

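The count of probe sets called stayed between 2192 and 3660 over 19 alternatives, against 2520, and between 2241 and 2461 when any 1 array was left out. Scaling to the hybridization controls gave 3660 calls, 96.6% of them higher in mdx against 47.3% as reported, and moved the median log2 change to 0.45. It turned the sign of Dlk1 to 0.50, of Gnas 93271_s_at to 0.11, of Pon2 to 0.029 and of Kcnq1 to 0.10. Among values not called under either scaling, it turned that of Plagl1 92502_at to 0.12, of Grb10 93690_at to 0.44 and of Nap1l4 97860_at to 0.22. Grb10 93691_s_at, not called as reported, was called with this scaling, at 0.93 (limma adjusted p = 0.0156). Quantile normalization ended the calls of Gnas, at -0.01 (limma adjusted p = 0.852), and Ddc (0.0683), dropping the filter those of Ube3a (0.0787) and Kcnq1 (0.0787), and equal trimmed means that of Kcnq1 (0.0601). The count of listed genes called, 6, was 5 with the stricter filter, with quantile normalization and with the mean of a gene's probe sets, and 6 under the other alternatives. With scaling to the hybridization controls these 6 were not the same genes, since Dlk1 was called higher (limma adjusted p = 0.03) and Gnas was not called (0.447), which made 6 higher and 0 lower against 5 and 1. As a description of genes chosen on this contrast, the log2 changes of Peg3, Meg3, Mest, Cdkn1c and Ndn over the alternatives ran over 1.95 to 2.73 (Peg3 96765_at), 1.52 to 2.30, 1.09 to 2.04, 0.99 to 1.73 and 0.48 to 1.07. The count of further imprinted genes, 9, ranged from 6 without mdx replicate 3 to 11. The median correlation among members ran from -0.078 to 0.054. With the replicate number as a block (replicate block), 2212 probe sets were called, 6 listed genes and 7 further imprinted genes, with Kcnq1 (limma adjusted p = 0.0598), Ube3a (0.0653) and Ddc (0.0649) lost. The block rests on a shared number only, and 1 of 10 arrays correlated best with their own number. Probe sets near the noise level of 156.8 limit what Plagl1, Mest in control, and the dimmer probe sets of Grb10, Gnas, Ndn and Meg3 can show.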
